A study of Mus musculus with 8 samples.

Results

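The genes of the SR proteins, the hnRNP proteins and their partners at the 3' splice site were described in 2 cell types of Dido1∆E16 and control mice. Members were chosen by symbol alone: every gene named Srsf followed by a number, every gene whose name starts with Hnrnp, Sf3a, Sf3b or Snrp, and Tra2a, Tra2b, U2af1, U2af2, Clk2, Clk3 and Clk4. The rule found 59 of 26160 named genes and 185 of 63753 transcripts. By role they were 11 SR proteins, 2 SR-like Tra2 proteins, 3 Clk kinases, 20 hnRNP proteins, 9 SF3a and SF3b subunits, 2 U2AF subunits and 12 Sm and snRNP proteins. RNA-seq was made from pre-B cells, sorted from bone marrow by surface markers and pooled from 2 to 3 mice per library, and Omni-ATAC-seq from LSK cells, the lineage-negative Sca-1+ c-Kit+ blood progenitors. Each assay had 2 WT and 2 Dido1∆E16 libraries, all from C57BL/6 mice of 6 to 10 weeks, and a library is called by its genotype and replicate number (WT 2). The mutant genotype was Dido1 flE16/∆E16;R26R-EYFP;iCre-Vav1, in which Cre under the blood-cell gene Vav1 removes exon 16 of Dido1, the exon that is particular to the DIDO3 protein. The libraries called WT came from Dido1 flE16/+;R26R-EYFP;iCre-Vav1 littermates, so they too carried the Cre, the reporter and a floxed allele.

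SR proteins bind exons through RNA recognition motifs and recruit the spliceosome through domains rich in arginine and serine. Clk kinases phosphorylate those domains, and hnRNP proteins bind introns and exons and often act against SR proteins. The U2AF subunits read the 3' splice site, SF3a and SF3b hold the U2 snRNP at the branch point, and Sm proteins form the ring around the spliceosomal small nuclear RNAs. Many SR and Tra2 genes limit their own output by including a conserved exon with an early stop codon, which sends the RNA to nonsense-mediated decay.

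The RNA-seq files held between 1121 and 1635 megabases of aligned sequence over transcripts per library. Exon 16 of Dido1 had a coverage, on the TPM scale, of 24.6 and 21.8 in WT against 0.295 and 0.0843 in Dido1∆E16 libraries, in the direction of the labels. The B lineage of the pre-B label, though not the stage, held on Pax5, a defining gene of B-lineage cells, at between 786 and 835 TPM. Of 10 T and NK markers, 5 were listed at 0 throughout, among them Cd3e, Cd4 and Cd8a. The 10 had a summed level of 29.25 and 23.18 TPM in WT and 21.38 and 41.25 TPM in Dido1∆E16 libraries. Lck, another of them, was at 22.3 and 18.4 TPM in WT and 12.6 and 15.3 TPM in Dido1∆E16. The 15 markers of cycling large pre-B cells had a summed level of 2717 TPM in WT 1, 619 TPM in WT 2 and 2843 and 2360 TPM in Dido1∆E16 libraries. Without Vpreb1 and Igll1, which the pre-B marker list also holds, the sums of the other 13 were 2497, 543, 1197 and 1370 TPM, so WT 1 stood above and WT 2 below both Dido1∆E16 libraries. Dido1∆E16 2 stood apart in 11 neutrophil and monocyte markers, at 9778 TPM against 266, 2248 and 1118 TPM, and in erythroid markers, at 8746 TPM against 340.1, 951 and 755 TPM. Vpreb1, Vpreb2, Igll1 and Dntt, the 4 of 16 pre-B markers with an unadjusted limma p under 0.05, were higher in both Dido1∆E16 libraries, and Vpreb1 went from 108 and 40.9 TPM to 1222 and 738 TPM. In sorted bulk cells, fewer cells of a type and less RNA per cell cannot be told apart.

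The splicing factor genes were strongly expressed in pre-B cells. Of the 59 genes, 57 passed the minimum mean of 1 TPM, and their median level was 163 TPM against 29.5 TPM over the 11871 genes tested. TPM is scaled by transcript length, so these levels can be compared between genes. Srsf12 and Snrpn were listed at 0 in every library. Hnrnpll passed through Dido1∆E16 2 alone (4.13 TPM, listed at 0 elsewhere), and Snrpf passed through WT 2 alone (19.7 TPM, listed at 0 elsewhere). The Sm ring genes Snrpb, Snrpd1, Snrpd2, Snrpd3, Snrpe and Snrpg were above 0 in every library. Whether a listed 0 is an absence of the RNA was not tested, for genes or for single transcripts. Together the members held 1.39% and 1.15% of all TPM in WT against 1.25% and 1.13% in Dido1∆E16 libraries. The groups overlapped in this share (exact two-sided permutation test, p = 0.667), and 2 libraries against 2 cannot give a p below 0.333. The hnRNP genes held most of it, at 0.735% and 0.544% in WT against 0.6503% and 0.605% in Dido1∆E16 libraries.

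**Figure D1:**
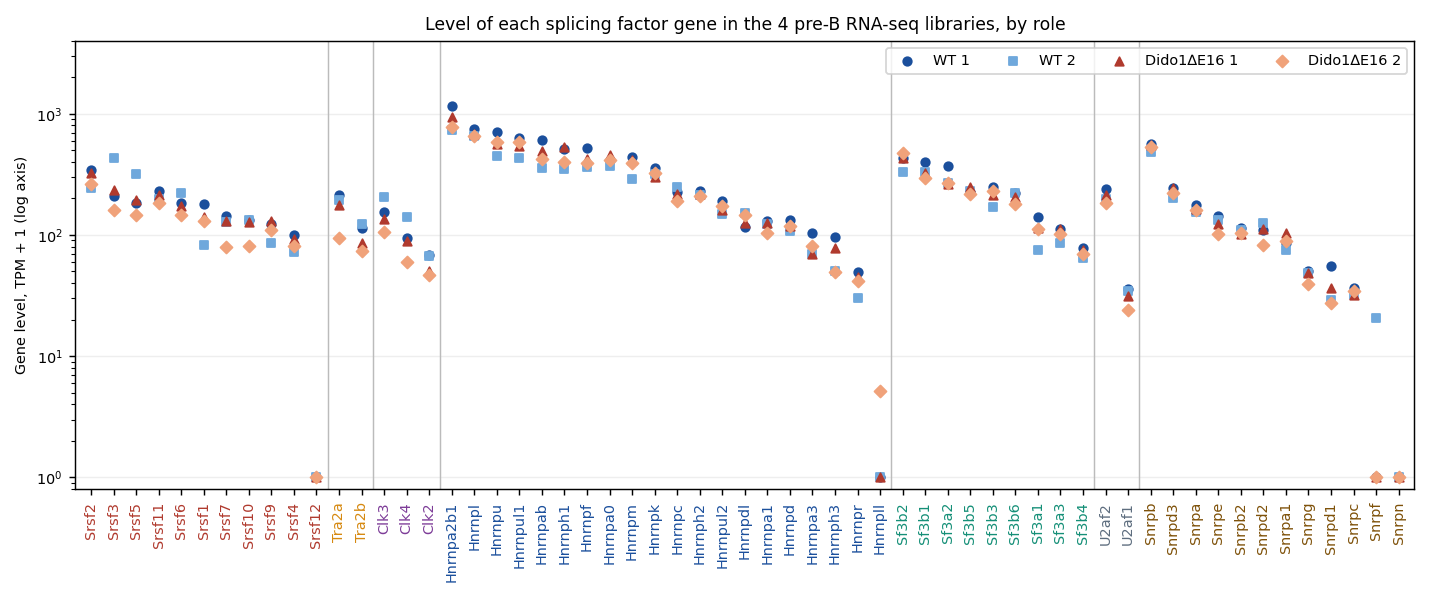
Level of each of the 59 genes in the 4 pre-B RNA-seq libraries, as TPM + 1 on a log axis, ordered by role (vertical lines) and by mean level; each point is a library. WT 2 (light squares) is the highest point for Srsf3, Srsf5, Clk3 and Clk4 and the lowest for 13 of 20 hnRNP genes (4875 of all 11871 genes tested).

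None of the 57 genes passed the test between genotypes (limma on log2(TPM + 1), adjusted p under 0.05 and a log2 fold change of at least 0.6 either way). The test was sparse over the whole table too, with 6 of 11871 genes called (0.0505%). At an unadjusted p under 0.05 there were 2 of 57 members, Tra2b and Clk2, against 11.7% of all genes, and both were lower, as were 3.02% of all genes. The smallest adjusted p of a member was 0.309. The median log2 fold change of the members (Dido1∆E16 over WT) was -0.08, with 36 of 57 below 0, while the median over all genes tested was 0.07, with 41.7% below 0. Without WT 1 the members' median was 0.05 (all genes 0.14), and without WT 2 it was -0.20 (all genes 0.00). With each library centred on its median the members' median was -0.17, with 44 of 57 below 0. Both Dido1∆E16 libraries lay below both WT libraries for 13 of 57 members (22.8%), against 15.6% of all genes, and above them for 2 of 57 (3.51%), against 27.1%.

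**Figure D2:**
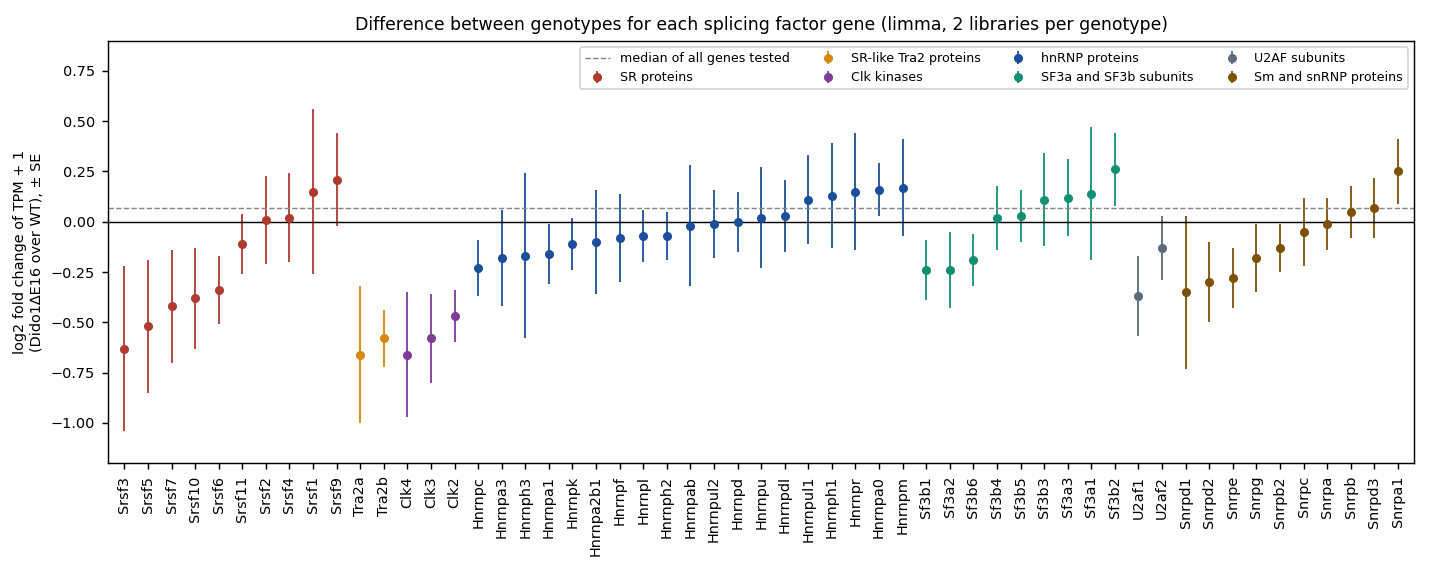
The log2 fold change of TPM + 1 (Dido1∆E16 over WT) of 55 genes with its standard error from limma, by role; the dashed line is the median of all genes tested, and Snrpf and Hnrnpll, each listed above 0 in a single library, are left out. The Tra2 and Clk genes lie between -0.47 and -0.66, while SF3a, SF3b and hnRNP genes lie around 0, and no gene passed the adjusted test.

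Among SR proteins, 6 of 10 genes tested had a negative log2 fold change, with a median of -0.22. Srsf6, an SR protein that regulates alternative exons, was at 181 and 222 TPM in WT and at 173 and 145 TPM in Dido1∆E16 libraries. Its groups did not overlap, and its log2 fold change was -0.34 (SE 0.17, limma adjusted p = 0.566). Srsf3, the smallest SR protein, was at 210.2 and 427 TPM in WT and at 233 and 160 TPM in Dido1∆E16 libraries. Srsf5 showed the same order of libraries, at 182 and 316 TPM in WT and at 193 and 144 TPM in Dido1∆E16. For both genes WT 2 was the highest library and WT 1 lay inside the Dido1∆E16 range, and the log2 fold changes were -0.63 (SE 0.41) for Srsf3 and -0.52 (SE 0.33) for Srsf5. With a library left out they ran from -1.14 to -0.12 for Srsf3 and from -0.92 to -0.13 for Srsf5, nearest 0 in both without WT 2. Srsf2, which binds exonic enhancers, was the most abundant SR gene, at 343 and 244 TPM in WT and 321 and 265 TPM in Dido1∆E16. Both of its Dido1∆E16 libraries lay inside the WT range, with a log2 fold change of 0.01 (SE 0.22). Srsf10, an SR protein that acts as a repressor when dephosphorylated, was the other SR gene whose groups did not overlap, at 131 and 131 TPM against 126 and 80.2 TPM. Srsf1, the founding SR protein, ran the other way in WT 2, where it was at 81.2 TPM against 181 TPM in WT 1 and 141 and 129 TPM in Dido1∆E16. Srsf10 and Srsf1 were chosen after their values had been seen.

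Both Tra2 genes and all 3 Clk genes were lower in each Dido1∆E16 library than in either WT library, though none passed the adjusted test and 15.6% of all genes were lower in this way. Tra2b, an SR-like activator of exons rich in GAA, was at 112 and 123 TPM in WT and at 84.5 and 72.9 TPM in Dido1∆E16. Its log2 fold change of -0.58 (SE 0.14) had the smallest p of all members (limma adjusted p = 0.309). Tra2a, its close paralog, was at 212 and 195 TPM in WT and at 176 and 93.2 TPM in Dido1∆E16, a log2 fold change of -0.66 (SE 0.34, adjusted p = 0.566). The Dido1∆E16 libraries differed from each other more than the nearer of them differed from WT, and the log2 fold change was -0.21 without Dido1∆E16 2 and -1.12 without Dido1∆E16 1.

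Clk2, a nuclear kinase of SR proteins, was at 67.1 and 66.7 TPM in WT and at 49.8 and 46.0 TPM in Dido1∆E16, with a log2 fold change of -0.47 (SE 0.13, limma adjusted p = 0.336). Here the replicates of each genotype lay close together. Clk3 was at 154 and 204 TPM in WT and at 135 and 104 TPM in Dido1∆E16 (log2 fold change -0.58, SE 0.22). Clk4 was at 93.7 and 139 TPM in WT and at 88.6 and 58.4 TPM in Dido1∆E16 (log2 fold change -0.66, SE 0.31). With a library left out, Clk2 ran from -0.53 to -0.42, Clk3 from -0.78 to -0.37 and Clk4 from -0.96 to -0.36 on the log2 scale. In Clk3 and Clk4, as in Srsf3 and Srsf5, the highest library was WT 2, which was also the library with the lowest sum of cycling markers, and the lowest was Dido1∆E16 2, which had the most myeloid and erythroid markers. The part of these markers in the order was not tested. The remaining member of the kinase family, Clk1, lies outside the rule and is given with the other regulators.

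The hnRNP genes had a median log2 fold change of -0.01, and 12 of 20 lay below 0. Their variation ran between the WT libraries. WT 1 was the highest library for 15 of 20, against 3414 of all 11871 genes tested. WT 2 was the lowest for 13 of 20, against 4875 of 11871. For 17 of 20 the gap between the WT libraries exceeded the difference between genotypes (85.0%, against 58.1% of all genes). Hnrnpa2b1, which binds RNA in nuclear processing and transport, was the most abundant member at 1147 and 738 TPM in WT and 944 and 777 TPM in Dido1∆E16. Hnrnpc, a tetramer-forming protein that binds uridine tracts, was the single hnRNP gene lower in both Dido1∆E16 libraries, at 227 and 248 TPM against 218 and 188 TPM, with a log2 fold change of -0.23 (SE 0.14, limma adjusted p = 0.627). Hnrnpa0 was the single hnRNP gene higher in both, at 412 and 368 TPM against 459 and 416 TPM, with a log2 fold change of 0.16 (SE 0.13, limma adjusted p = 0.686). Hnrnpll, known for the CD45 exon switch in lymphocytes, was listed at 0 in 3 libraries. The summed hnRNP level and the summed cycling markers were both lowest in WT 2, and the part of the markers was not tested.

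The SF3a and SF3b subunits were the role with the highest median change, at 0.03, and 6 of 9 lay above 0. Sf3b1, the subunit that clamps the branch point, was lower in both Dido1∆E16 libraries, at 401 and 332 TPM against 324 and 295 TPM, with a log2 fold change of -0.24 (SE 0.15, limma adjusted p = 0.634). Sf3b6, which contacts the branch point region, was at 219.6 and 221 TPM in WT and 206 and 180.2 TPM in Dido1∆E16. Sf3b2 was the most abundant subunit, at 432 and 329 TPM in WT and 429 and 475 TPM in Dido1∆E16, and its groups overlapped. U2af1, the small U2AF subunit that reads the AG at the 3' splice site, was at 35.0 and 33.4 TPM in WT and 30.2 and 22.9 TPM in Dido1∆E16 (log2 fold change -0.37, SE 0.20). U2af2, the large subunit that binds the pyrimidine tract, was at 236 and 195 TPM in WT and 211 and 181 TPM in Dido1∆E16, with overlapping groups.

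The Sm and snRNP genes had a median log2 fold change of -0.13, and 8 of 11 tested lay below 0. Snrpe, a subunit of the Sm ring, was at 141 and 131 TPM in WT and 123 and 102 TPM in Dido1∆E16, a log2 fold change of -0.28 (SE 0.15, limma adjusted p = 0.592). Snrpd2, another ring subunit, was at 109.7 and 125 TPM in WT and 111 and 81.0 TPM in Dido1∆E16, so its groups overlapped. Snrpa1, the U2-specific protein A', went the other way, at 85.4 and 74.5 TPM against 103 and 87.6 TPM, with a log2 fold change of 0.25 (SE 0.16, limma adjusted p = 0.64). Snrpb, the most abundant of the group, was at 564 and 485 TPM in WT and 554 and 529 TPM in Dido1∆E16.

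In 4 members, Srsf3, Srsf7, Tra2a and Tra2b, the UCSC models contained an internal exon in which a GENCODE decay transcript of the same gene ends its reading frame and which no protein-coding transcript of the gene touches. These exons were picked after the exon coverage had been seen. Self-regulatory exons of this kind are known in these genes, and each is given below from its first base to the premature stop codon, in capitals, in the direction of the gene (GRCm38). The stretches lie at chr17:29039454-29039487 (plus strand, Srsf3), chr17:80205054-80205081 (minus strand, Srsf7), chr6:49252965-49253108 (minus strand, Tra2a) and chr16:22259181-22259261 (minus strand, Tra2b).
Srsf3: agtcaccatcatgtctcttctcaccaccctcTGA
Srsf7: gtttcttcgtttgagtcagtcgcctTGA
Tra2a: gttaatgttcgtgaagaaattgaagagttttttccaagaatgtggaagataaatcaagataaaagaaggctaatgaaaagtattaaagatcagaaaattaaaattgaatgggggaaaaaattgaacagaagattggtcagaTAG
Tra2b: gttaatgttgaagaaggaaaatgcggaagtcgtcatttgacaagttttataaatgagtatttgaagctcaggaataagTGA
The reading frame ran 34 bases into the exon in Srsf3, 28 in Srsf7, 144 in Tra2a and 81 in Tra2b, and another 422, 432, 162 and 195 bases of exon followed the stop.

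These transcripts took nearly all of the TPM of their genes: the transcript with the stop exon held 100% of Srsf3 and of Tra2b, between 95.1% and 99.2% of Tra2a and between 79.0% and 100% of Srsf7. The protein-coding models of Srsf3 and Tra2a were listed at 0 in all libraries. The TPM of such a transcript is therefore not a level of the decay form, and the exon was read by its own coverage, divided by the mean coverage of the other internal exons of the transcript. The ratio of Srsf3 was 7.22 and 13.1 in WT against 6.93 and 6.14 in Dido1∆E16 libraries, and the groups did not overlap. Tra2b had ratios of 1.37 and 3.03 in WT against 1.36 and 2.00 in Dido1∆E16. Ratios above 1 mean that the exon was covered more deeply than the mean of the transcript's other internal exons, so the ratio is not an inclusion level. Against its 2 neighbouring exons alone, the Srsf3 exon had ratios of 5.8 and 7.34 in WT and 4.71 and 4.59 in Dido1∆E16. The Tra2b exon had ratios to its 2 neighbours of 0.789 and 2.00 in WT and 0.567 and 0.967 in Dido1∆E16.

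Srsf7 had ratios of 0.417 and 0.992 in WT against 0.555 and 0.307 in Dido1∆E16 libraries. Tra2a had ratios of 0.0709 and 0.246 in WT against 0.134 and 0.0973 in Dido1∆E16. In all 4 genes WT 2 was the highest library, while WT 1 lay inside the Dido1∆E16 range in Srsf7 and Tra2b and below it in Tra2a. The exact two-sided permutation p was 0.333 for Srsf3, the smallest that 2 against 2 can give, 0.667 for Srsf7 and Tra2b, and 1 for Tra2a. Without WT 2 the difference in mean ratio (Dido1∆E16 minus WT) shrank from -3.60 to -0.679 in Srsf3 and turned to 0.0136 in Srsf7, 0.0447 in Tra2a and 0.313 in Tra2b.

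**Figure D3:**
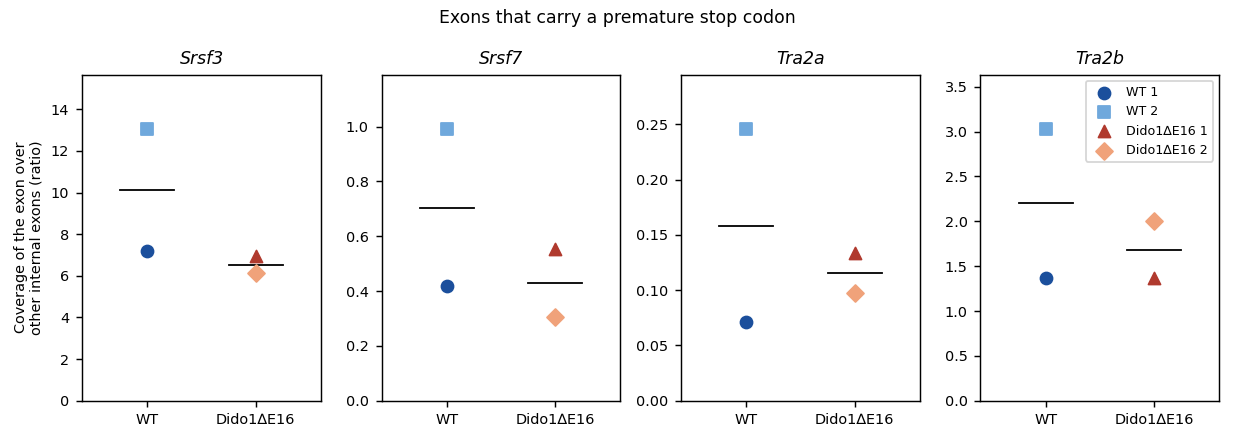
Coverage of the exon with a premature stop codon over the mean coverage of the transcript's other internal exons, a ratio without unit, for 4 genes; points are libraries and lines are genotype means. WT 2 has the highest ratio in each gene, and the Dido1∆E16 libraries fall below both WT libraries in Srsf3 alone.

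Single transcripts were tested in the same way. Of 185 member transcripts, 99 passed the mean of 1 TPM, 21 of them listed at 0 in at least 1 library, and 83 of the 185 were listed at 0 in all libraries. None of the 99 was called, against 25 of 16372 transcripts (0.153%). At an unadjusted p under 0.05 there were 5 of 99 (5.05%, against 9.2% of all transcripts), 1 higher and 4 lower (2.99% of all transcripts were lower). The groups did not overlap downwards for 23 of the 99 (15.6% of all transcripts) and upwards for 4 (23.4% of all).

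The smallest p-values were those of U2af2 and Hnrnph1 transcripts, which passed the minimum mean through the genotype in which they were high, so their p-values are given as a description. The U2af2 transcript uc009ezw.3, a retained-intron form at chr7:5068032-5079945, was at 57.4 and 69.6 TPM in WT and listed at 0 in both Dido1∆E16 libraries (limma adjusted p = 0.0533). It held 24.3% and 35.7% of the gene's TPM in WT. The exon that holds the intron (chr7:5068733-5069560) had a coverage of 22.6 and 16.01 in WT and 0 in both Dido1∆E16 libraries, while the 6 exons shared with the coding form uc009ezu.3 had 160 and 101 in WT against 149 and 92.7 in Dido1∆E16. With the limma trend left out, this was the single member transcript called, and its share of the gene was called without WT 1.

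The Hnrnph1 transcripts uc007isj.1 and uc007isk.1 are both protein coding and share 13 exons, and they differ at the 5' end. The former was at 510.1 and 347 TPM in WT and listed at 0 and at 191 TPM in Dido1∆E16. The latter was listed at 0 in both WT libraries and at 533 and 206 TPM in Dido1∆E16 (limma adjusted p = 0.0868). The gene sum did not separate the genotypes, at 510.1 and 347 TPM against 533 and 397 TPM. The distinguishing 5' exons were thinly covered: the pair particular to uc007isj.1 had 0.392 and 3.38 in WT against 0 and 3.23 in Dido1∆E16, and the exon particular to uc007isk.1 (chr11:50377719-50377802) had 0 in both WT libraries and 25.3 and 8.49 in Dido1∆E16. The shared exons had a coverage of 344 and 175 in WT against 359 and 194 in Dido1∆E16, so the exons that tell the transcripts apart held a small part of the coverage. Hnrnpab, chosen after its values had been seen, changed its main coding transcript within each genotype. Its transcript uc007iub.1 was at 605 and 1.84 TPM in WT and at 490 and 1.13 TPM in Dido1∆E16. Its transcript uc007itz.1 was at 0 and 351 TPM in WT and at 0 and 425 TPM in Dido1∆E16. The shares of both Hnrnph1 transcripts were not called with all libraries or with the replicate block. They were called with either Dido1∆E16 library left out, where 1 mutant library stood against WT shares of 100% and 0% without spread.

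**Figure D4:**
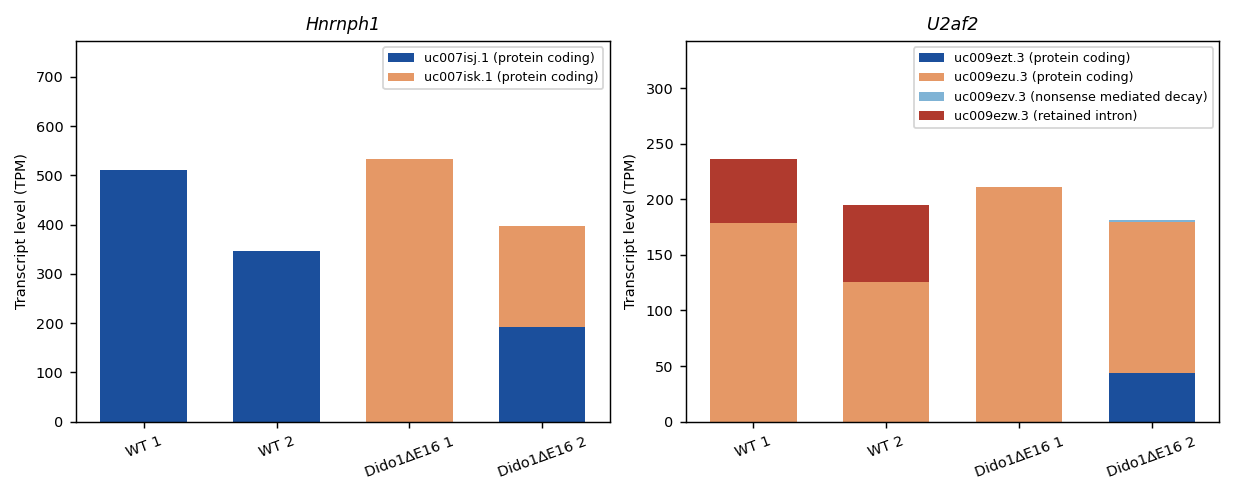
TPM of each transcript of Hnrnph1 and U2af2 above 0 in any library, stacked per library, with the GENCODE class in the key. The Hnrnph1 transcript uc007isk.1 appears in the Dido1∆E16 libraries alone, and uc007isj.1 in both WT libraries and, at 191 TPM, in Dido1∆E16 2. The retained-intron form of U2af2 appears in the WT libraries alone, at 57.4 and 69.6 TPM.

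Among the other transcripts with the smallest p, the decay-class Tra2b transcript repeated its gene sum. The coding Clk2 transcript uc008pxt.3 was at 64.0 and 63.5 TPM in WT and 49.8 and 45.0 TPM in Dido1∆E16, and the retained-intron Sf3b1 transcript uc007azw.2 at 12.7 and 15.2 TPM against 8.16 and 6.48 TPM. In the upward direction the Snrpa1 transcript uc009hgy.2 and the Hnrnpa0 transcript uc007qtf.2 repeated their gene sums, and the Hnrnpdl transcript uc008ygx.1 was listed at 0 in 3 libraries and at 56.6 TPM in Dido1∆E16 2.

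Shares of a gene's TPM gave the same picture. Of 55 member transcripts from 30 genes tested on their share, 0 were called by limma, against 105 of 7551 (1.39%), and 3 had an unadjusted p under 0.05 (5.45%, against 7.63%), 2 of them lower (3.81% of all). After Hnrnph1 and U2af2, the largest non-overlapping difference was in Clk4, whose main coding transcript uc007itr.2 held 91.9% and 100% of the gene in WT against 91.3% and 72.1% in Dido1∆E16. The Hnrnpf transcript uc012eqx.1 held 78.9% and 78.1% in WT against 75.9% and 71.0% in Dido1∆E16. In U2af1 the transcripts uc012aov.1 and uc008bvo.2, of the same length and ends, split the gene 92.1% to 7.93% and 86.7% to 13.3% in WT, and 92.2% to 7.76% and 94.6% to 5.38% in Dido1∆E16. The retained-intron Srsf11 transcript uc008rvs.1 held 10.1% and 11.7% in WT against 9.15% and 5.06% in Dido1∆E16.

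Grouped by GENCODE class, the members carried more TPM in decay-class transcripts than genes at large, at 7.05% and 11.3% of the members' TPM in WT against 7.13% and 7.97% in Dido1∆E16, against 2.46% and 2.55%, and 2.54% and 2.47%, over all named genes. The class held between 97.3% and 99.5% of the TPM of the Tra2 genes and between 17.3% and 29.2% of that of the SR proteins, through the assignment described above. In hnRNP genes it held 4.6% and 7.86% in WT against 4.58% and 8.31% in Dido1∆E16. All TPM of Hnrnpa1 lay on the decay-class transcript uc007xxt.2, at 130.1 and 121.3 TPM in WT and 123.5 and 102.7 TPM in Dido1∆E16, with its coding models listed at 0. The members' total is therefore not a level of decay forms. Retained-intron transcripts held 1.34% and 1.81% of the members' TPM in WT against 1.30% and 0.583% in Dido1∆E16 (exact two-sided permutation p = 0.333), with the groups not overlapping; without the U2af2 transcript uc009ezw.3 the shares were 0.927% and 1.21% against 1.30% and 0.583% and overlapped (p = 1). Over all named genes the class held 2.03%, 1.80%, 2.22% and 1.68% in the same order of libraries. Within the U2AF genes the class held 21.1% and 30.5% in WT and was listed at 0 in both Dido1∆E16 libraries. SR proteins had 3.99% and 3.16% in WT against 4.73% and 3.75% in Dido1∆E16.

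In LSK cells most of these genes had an open promoter in every library. A promoter was taken, as the authors annotated it, from 1000 bp upstream to 200 bp downstream of a start site. MACS2 promoter peaks named for a member were found for 46 and 48 members in the WT and for 45 and 47 in the Dido1∆E16 libraries (exact two-sided permutation p = 0.667), and 39 of 59 had one in all 4. Over all genes the number with a promoter peak was 9412 and 12130 in WT against 7573 and 7579 in Dido1∆E16. With only the 13208 best-scoring peaks of each library both directions turned, to 37 and 38 members in WT against 45 and 43 in Dido1∆E16, and to 6326 and 6485 genes against 7573 and 6784. Of 42 members with a promoter peak in both WT libraries, 39 (92.9%) kept it in both Dido1∆E16 libraries, against 67.1% of 8982 genes, and 0 lost it in both, against 14.9%. Among other genes expressed in pre-B cells at 98.2 TPM or more, the lower quartile of the members, 75.7% kept it. With equal numbers of best-scoring peaks, 30 of 32 members kept it (93.8%), against 87.6% of all genes. The libraries differed in depth, from 10249256 and 52050898 tags in WT to 22533077 and 44633938 tags in Dido1∆E16, and in MACS2 peaks, from 27352 and 57739 in WT to 13208 and 16329 in Dido1∆E16. The number of peaks did not follow the number of tags, and the part of library quality in these counts was not tested.

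The rank of these peaks was read within each library, among promoter peaks that numbered 9803 and 13038 in WT against 7766 and 7805 in Dido1∆E16. The best promoter peak of a member had a median score percentile, among all promoter peaks of its library, of 57.5 and 64.9 in WT against 47.1 and 51.8 in Dido1∆E16 (exact two-sided permutation p = 0.333, the smallest possible). For 23 of the 39 members with a peak in all libraries (59.0%) both Dido1∆E16 percentiles lay below both WT percentiles, against 40.5% of 6027 genes, and for 0 they lay above, against 3.82%. Over all genes with a peak in all 4 libraries the median difference was -10.1 percentile points, against -13.4 for the members. With equal numbers of best-scoring peaks the members' medians overlapped, at 48.8 and 46.3 in WT against 47.1 and 45.8 in Dido1∆E16 (exact two-sided permutation p = 0.667). In that setting 7 of 30 members with a peak in all libraries (23.3%) were lower and 6 (20%) higher without overlap, against 12.8% and 21.96% of 4636 genes.

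**Figure D5:**
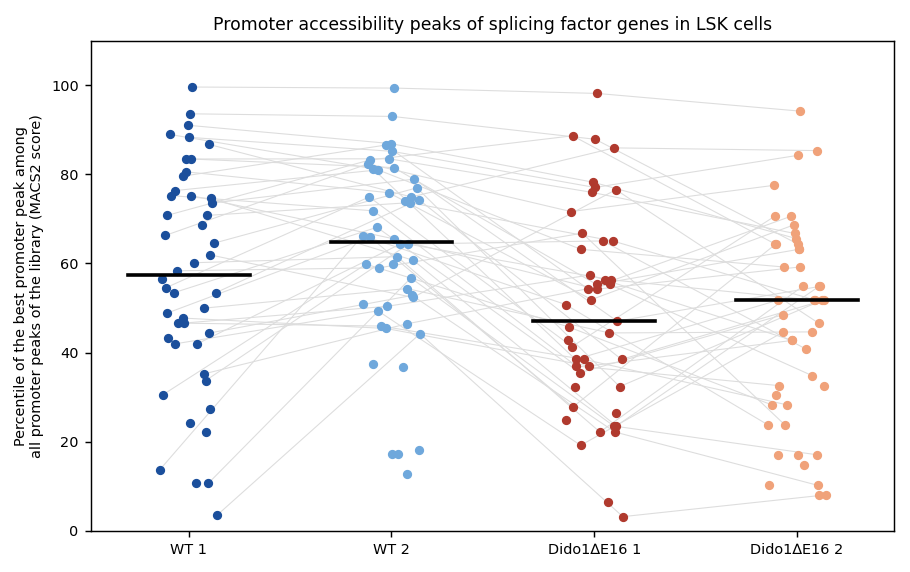
Percentile of each member's best MACS2 promoter peak among all promoter peaks of its LSK library; points are genes, thin lines join the 39 genes with a peak in all 4 libraries, and thick bars are medians. The medians are 57.5 and 64.9 in the WT and 47.1 and 51.8 in the Dido1∆E16 libraries, whose lists of promoter peaks are shorter, and they overlap when equal numbers of peaks are ranked.

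Among the 39 members with a peak in all 4 libraries, Hnrnpc had the highest mean percentile, at 99.6 and 99.4 in WT against 98.2 and 94.2 in Dido1∆E16, followed by Sf3b5, a small subunit of SF3b, at 93.6, 93.0, 87.9 and 64.3, and by Srsf11, at 88.3, 85.2, 77.1 and 84.3 in the same order of libraries. The lowest of the 39 were Sf3b4, at 3.54, 44.2, 3.17 and 8.05, Srsf3, at 10.6, 56.8, 23.5 and 17.1, and Srsf1, at 44.4, 52.8, 22.2 and 10.2. Srsf3, low in this rank, was among the more abundant SR genes in pre-B cells, which are another cell type. Srsf6 had the most negative difference of the 39, with 89.0 and 81.3 in WT against 38.5 and 51.8 in Dido1∆E16. With equal numbers of peaks it was also the most negative of 30, with 83.2 and 63.1 against 38.5 and 45.8. Sf3a3 had a percentile of 68.7 and 74.0 in WT but 6.43 in Dido1∆E16 1, and had no MACS2 promoter peak in Dido1∆E16 2, although HOMER called a promoter peak in all 4.

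The promoters of the highest-ranked gene, of Srsf6 and of Sf3a3 are given from RefSeq (GRCm38.p6), from 250 bases before to 50 bases after the start, with CCGGAA (the ETS core) and CCAAT in capitals on either strand. Srsf6 and Sf3a3 were chosen after their values had been seen. Hnrnpc lies at chr14:52103972-52104271 (minus strand), Srsf6 at chr2:162931258-162931557 (plus strand) and Sf3a3 at chr4:124714611-124714910 (plus strand).
Hnrnpc: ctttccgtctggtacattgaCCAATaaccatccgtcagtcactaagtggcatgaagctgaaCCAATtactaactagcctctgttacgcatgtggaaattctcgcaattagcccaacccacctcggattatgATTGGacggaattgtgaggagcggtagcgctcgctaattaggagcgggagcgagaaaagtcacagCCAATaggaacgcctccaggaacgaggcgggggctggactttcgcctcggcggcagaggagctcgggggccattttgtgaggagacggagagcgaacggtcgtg
Srsf6: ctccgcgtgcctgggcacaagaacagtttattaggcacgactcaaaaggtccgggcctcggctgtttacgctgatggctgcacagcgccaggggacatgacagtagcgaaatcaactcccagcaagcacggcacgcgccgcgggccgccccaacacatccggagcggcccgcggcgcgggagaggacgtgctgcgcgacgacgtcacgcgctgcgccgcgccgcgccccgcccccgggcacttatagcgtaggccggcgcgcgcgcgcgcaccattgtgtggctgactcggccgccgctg
Sf3a3: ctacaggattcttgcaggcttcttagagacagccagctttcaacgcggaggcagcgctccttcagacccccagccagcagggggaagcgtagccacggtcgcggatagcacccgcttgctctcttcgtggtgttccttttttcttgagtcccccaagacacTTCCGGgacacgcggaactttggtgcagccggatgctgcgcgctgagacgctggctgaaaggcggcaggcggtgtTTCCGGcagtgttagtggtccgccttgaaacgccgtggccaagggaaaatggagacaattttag
A MACS2 peak overlapped the Hnrnpc and Srsf6 windows in 4 libraries and the Sf3a3 window in 3. Hnrnpc held 4 matches to CCAAT, Sf3a3 held 2 matches to CCGGAA, and Srsf6 held neither. Among 70 RefSeq promoters of 52 member genes, CCGGAA was present in 31 (44.3%), against 14.9% of 32851 promoters of all genes, and CCAAT in 32 (45.7%), against 37.4%. TGACGTCA, the cyclic AMP response element, was the other motif searched and was in 4 (5.71%, against 1.79%). These counts do not adjust for base composition, and a match is not a bound site.

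Members without a named promoter peak mostly shared their promoter with another gene. Of the 7, Snrpn was listed at 0 in pre-B RNA and had no peak in its window. The other 6 were expressed, and a peak overlapping their promoter window was annotated to a neighbour: to Cbx5 for Hnrnpa1, to Gla for Hnrnph2, to Ccdc157 for Sf3a1 and to BC024978 for Snrpa in 4 of 4 libraries, to Plekhj1 for Sf3a2 in 3 and to Gm45927 for Clk2 in 2. By position alone, 51 and 58 members had a peak in a promoter window in WT against 53 and 53 in Dido1∆E16. Away from promoters, 24 and 63 peaks were assigned to members in WT against 16 and 11 in Dido1∆E16, of which 17, 50, 11 and 7 were distal intergenic. Over all genes the WT libraries had 17549 and 44701 such peaks and the Dido1∆E16 libraries 5442 and 8524.

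Splicing genes outside the rule were taken from 3 lists, and limma called none of the 108 genes tested in them, against 0.0505% of all genes. An unadjusted p under 0.05 was found for 5 (4.63%, against 11.7% of all genes). Among 38 of 41 other splicing regulators the median log2 fold change was -0.06, with 23 below 0. The gene with an unadjusted p under 0.05 was Clk1, at 247 and 380.4 TPM in WT and 162 and 96.5 TPM in Dido1∆E16, a log2 fold change of -1.28 (SE 0.35, limma adjusted p = 0.327). With it, all 4 Clk kinases were lower in both Dido1∆E16 libraries. The 52 core spliceosome genes had a median of 0.04, with 29 above 0. Among them Snrnp25, a protein of the minor spliceosome, was at 46.3 and 39.1 TPM in WT and 125 and 118 TPM in Dido1∆E16 (log2 fold change 1.49, SE 0.15, limma adjusted p = 0.154). Snrnp200, the helicase that unwinds U4 from U6, went from 152 and 97.9 TPM to 186 and 228 TPM, and Snrnp27, of the tri-snRNP, from 122 and 105 TPM to 84.5 and 77.5 TPM. The 18 genes of nonsense-mediated decay and the exon junction complex had a median of 0.05, and Smg6, the endonuclease of the decay pathway, was at 72.7 and 68.8 TPM in WT and 92.6 and 98.5 TPM in Dido1∆E16 (limma adjusted p = 0.35).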

How the data were processed

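The authors aligned the pre-B reads with BWA-MEM 0.7.15, removed duplicates, and ran StringTie 2.0 on UCSC known genes (mm10). The deposited values are TPM and FPKM for each transcript, with coverage of transcripts and exons, and no counts, so depth is known only as aligned bases. The authors called ATAC peaks per library with MACS2 and HOMER. The deposited MACS2 score was ranked within a library, and the deposited HOMER score was not used. A deposited list of regions with log2 tag counts per library gave the total tags in its header. The authors' tables of fold changes and p-values were not used.

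Transcript symbols came from the deposited annotation (30124 of 63753 transcripts), and others from the GENCODE M21 gene of the same strand holding at least 50% of their exonic bases (56380 in all, and 97.4% of symbols matched where both existed). Of the 59 genes, 57 were found with the deposited names alone. Log2(TPM + 1) of gene sums and of transcripts was fitted by genotype with limma 3.58.1 (R 4.3.3, eBayes with trend). Benjamini-Hochberg adjustment ran over all features with a mean TPM of at least 1, and fold changes on this scale understate low genes. The percent share of a gene's TPM was fitted in limma by genotype with eBayes without trend. Its adjustment ran over transcripts with a mean share of at least 5%. Their genes had 2 or more transcripts and at least 1 TPM in every library. Single values were compared by exact permutation (scipy 1.17.1). The fits were tested on simulated data with 2 libraries per genotype: log2 changes of 1, 2 and 4 were called in 1.49%, 35.8% and 68.2% of changed genes (11871 fitted) and in 0%, 2.99% and 28.8% of changed transcripts (16372 fitted), so a change of 1 would mostly not be called. Share changes of 20, 50 and 80 percentage points were called in 35.8%, 58.2% and 51.5% (7551 fitted), with 16 unchanged shares called. The simulated shares were not bounded, and transcripts of a gene were drawn independently, so these rates need not hold for real shares. Named genes were, per role, the most abundant and the 3 with the smallest p; transcripts, the 4 with the smallest p each way; shares, the 6 members with the largest non-overlapping difference; peaks, the extremes of percentile and expressed members without a peak; others are said to be chosen later or complete a role. The members, lists and tests were chosen with earlier results of these data known. The labels do not say that libraries are separate cultures or animals beyond the pools, so p-values measure the spread between these libraries. The labels give 2 ATAC libraries per genotype and the methods 3, and the labelled ones were used.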

Additional observations from a re-analysis of the deposited data

How the results depend on the processing

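No member gene was called in the gene sums by limma under any of 11 alternatives (1 to 14 members with an unadjusted p under 0.05, except 0 without Dido1∆E16 replicate 2), and the 108 other splicing genes gave 0 calls in each. Names from the deposited files alone, chosen after seeing the data, gave a members' median of -0.07. Member transcripts called numbered 1 with the limma trend left out (U2af2 uc009ezw.3) and 0 to 3 with a library left out, the 3 (Clk4 uc007itu.2, Hnrnpll uc008dqk.2 and Srsf11 uc008rvt.1, each listed at 0 in all libraries but Dido1∆E16 2, through which it passed the filter) without Dido1∆E16 replicate 1. Changed shares numbered 0 to 6 with a library left out, the 6 without Dido1∆E16 replicate 1. Where this leaves a genotype with 1 library, limma takes its spread from the other genotype, and the cause was not tested. The difference in the members' share of TPM ran from -0.196 to 0.0453 percentage points with a library left out, above 0 without WT replicate 1. The difference in members with a promoter peak per library (Dido1∆E16 minus WT) was -1, 1 with HOMER peaks and 6.5 with equal numbers of best-scoring peaks; the cause was not tested.

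Of 22 named genes, log2 fold changes turned in sign in 9 of 241 values. Srsf2 was -0.08 after median centring, -0.02 with FPKM and from -0.24 to 0.26 with a library left out. Snrpb was -0.04 after median centring and from -0.06 to 0.16 with a library left out. With a library left out Hnrnpa2b1 ran from -0.42 to 0.21 and U2af2 from -0.27 to 0.00. With the deposited names alone U2af2 was -3.26, since these name uc009ezw.3 and uc009ezt.3 but not the main coding transcript uc009ezu.3. The difference in the ratio of the exon with a premature stop ran, with a library left out, from -0.561 to 0.0136 in Srsf7, from -0.13 to 0.0447 in Tra2a and from -1.35 to 0.313 in Tra2b.

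The replicate differences of WT and Dido1∆E16 correlated at r = 0.047 over genes and 0.071 over transcripts. Some values still followed the replicate number. Aligned megabases were 1581 in WT 1 and 1635 in Dido1∆E16 1, against 1121 in WT 2 and 1173 in Dido1∆E16 2. The Hnrnpab transcript uc007itz.1 held 0% and 99.5% of its gene in WT and 0% and 99.7% in Dido1∆E16. Whether libraries of the same replicate number shared a batch was not tested. With the replicate number as a block, 0 member genes, 0 member transcripts, 0 shares and 0 other splicing genes were called, and the members' median was -0.08. With 2 libraries per genotype, 1 library can set a difference, and neither counts nor molecule numbers are known for these TPM.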
